A study of Cucumis sativus with 25 samples.

Results

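Degradome tags that matched ribosomal RNA were described in cucumber shoot apices. They were all tags of a degradome library with at least 1 matched sequence record marked as rRNA. By this rule 2349 of 5359 different tags were members, and they held 250815 of the 263397 copies in the table. The library is a single mixture of total RNA from apices of seedlings grown at 28 °C in light and 25 °C in dark under 16 h (HL) or 8 h (HS) of light, and at 20 °C in light and 15 °C in dark under 16 h (LL) or 8 h (LS) of light, all at 70% humidity. Apices of 1 mm were dissected from seedlings of an inbred line at 4 weeks of age, at the stage of 4 true leaves. The mixture holds all 4 treatments, so no tag could be assigned to a treatment, and 1 library gave no replicate. The same series has 12 mRNA and 12 small RNA libraries, which were not used here.

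A degradome library records the 5′ ends of RNA fragments that carry a 5′-monophosphate and a poly(A) tail, and in plants it is used to find the sites at which miRNAs cut their targets. Ribosomal RNAs also carry a 5′-monophosphate, because the 18S, 5.8S and 25S molecules are released from a common precursor by endonucleases and exonucleases that remove the external and internal transcribed spacers. ITS1 lies between 18S and 5.8S, and ITS2 lies between 5.8S and 25S. Precursor fragments under removal are known to receive short adenosine tails in the nucleus.

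The tag with the most copies and those that began shortly before it carried the main finding, and 4 of them are shown, with the first bases of the leading tag in capitals, so that the shift of the 5′ end can be read.
t4659424: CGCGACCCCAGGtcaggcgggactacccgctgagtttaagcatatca
t4659365: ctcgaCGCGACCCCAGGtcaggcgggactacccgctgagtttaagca
t4659414: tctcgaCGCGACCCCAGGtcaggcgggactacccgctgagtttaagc
t4658906: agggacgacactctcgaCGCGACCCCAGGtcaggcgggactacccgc
All 4 run over the conserved start of 25S rRNA, and the letters before the capitals belong to the end of ITS2. They began 0, 5, 6 and 17 bases before the leading tag's first base and had 200601, 4700, 12921 and 855 copies. The names of rRNA parts here and further on, the spacers among them, come from general knowledge, since the records are marked only as rRNA. No cucumber genome was used.

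Tags with an rRNA record made up 95.2% of the copies in the table (Wilson 95% interval 95.1 to 95.3%) but 43.8% of the different tags. Copies are reads without molecular identifiers, so all intervals cover counting error only. Tags with a tRNA record and no rRNA record were 694 in number and held 3367 copies (1.28%), and the 2316 tags with neither held 9215 copies (3.50%). The table lists only tags that were given no gene, so it is a part of the library, and its total is not the depth of the library. These shares therefore describe the table and not the RNA of the apex.

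Most of this share was a single sequence. The leading tag, t4659424, had 200601 copies, which was 80.0% of the rRNA copies (79.8 to 80.1%). The 10 tags with the most copies held 93.6%, the 15 highest 95.1% and the 100 highest 97.8%. On the other hand, 1449 of the 2349 rRNA tags (61.7%, 59.7 to 63.6%) were read once. The share of tags read once was 61.1% (57.4 to 64.7%) with a tRNA record and 67.4% (65.4 to 69.2%) with neither, while the highest tag held 13.9% and 5.96% of the copies in those classes. Without the leading tag, tags with an rRNA record were 80.0% of the copies left, and without the 10 highest rRNA tags they were 56.0%.

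**Figure D1:**
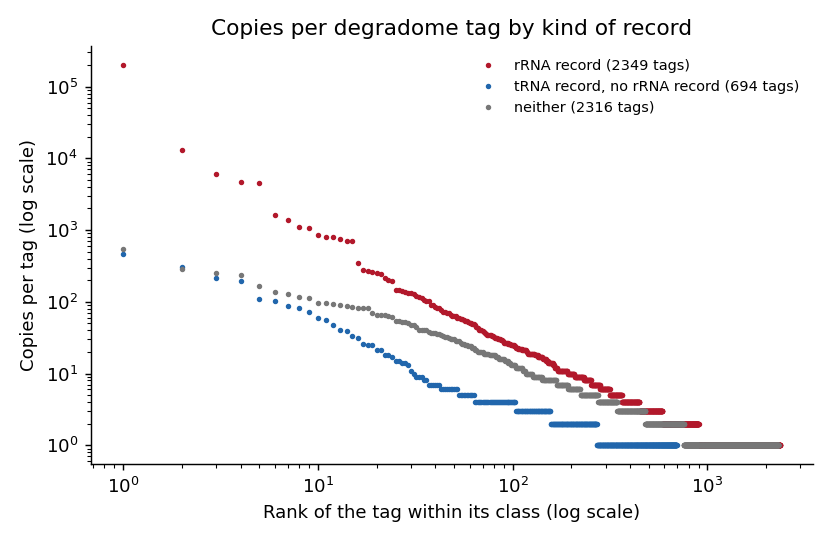
Copies of each tag (log scale) against its rank within its class (log scale); each point is 1 tag of the single library. The highest rRNA tag stands at 200601 copies, against 467 for the highest tag with a tRNA record and 549 for the highest tag with neither.

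The tags were next placed beside each other by their own letters. Tags that shared at least 25 bases without a gap and with at most 2 mismatches were joined, which gave 50 groups from 1833 tags, 23 of them of 1 tag. The other 516 rRNA tags (7413 copies, 2.96% of the rRNA copies) had 36 or more of 1 base and were kept apart; 502 of them were rich in A. Among them was the third tag by copies, t4659380, a run of 47 A with 6006 copies. Of its 164 records, 5 were marked rRNA, so that the rule took in such tags although their letters belong to no rRNA in particular. The tags with neither record included 575 tags of this kind, and those with a tRNA record none.

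The 5 largest groups held 242555 copies (96.7% of the rRNA copies) in 1504 tags. The group at the 25S start alone had 1136 tags and 232110 copies (92.5%, 92.4 to 92.6%). The ITS1 group had 99 tags and 6319 copies (2.52%), and the ITS2 group had 156 tags and 1900 copies (0.758%). A group inside 25S rRNA had 41 tags and 1148 copies (0.458%), and the group at the 5.8S start had 72 tags and 1078 copies (0.430%). The remaining 45 groups held 847 copies together (0.338%). Both ends of 18S were found among these, with 62 copies at its start and 76 copies across its end into ITS1.

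**Figure D2:**
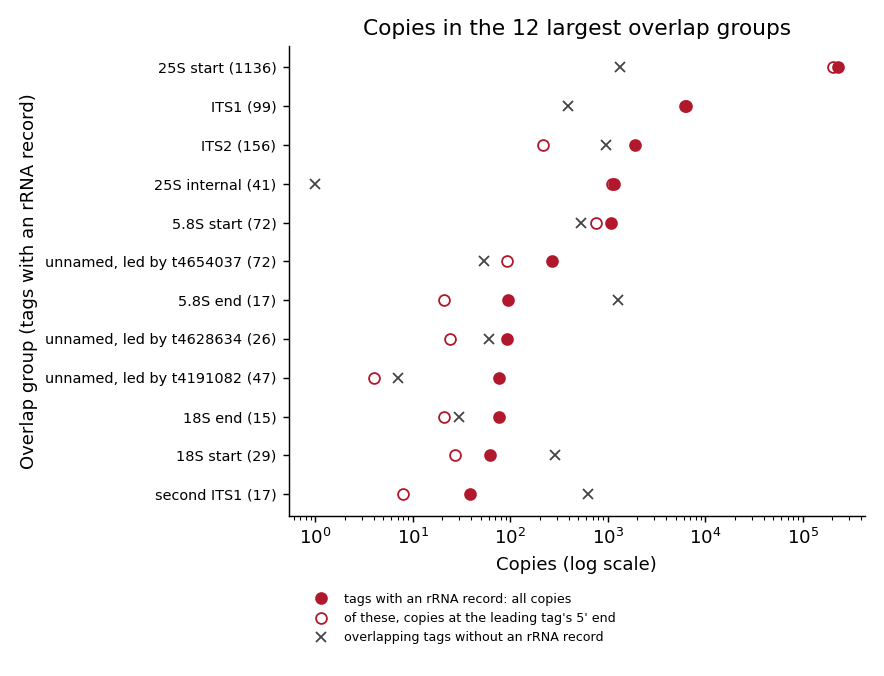
Copies (log scale) in the 12 largest groups of overlapping tags, with the number of tags with an rRNA record in brackets; filled circles give all copies of these tags, open circles those at the 5′ end of the group's leading tag, and crosses the copies of overlapping tags without an rRNA record. The 25S start holds 232110 copies, and the open circle falls far below the filled one for ITS2 (216 of 1900).

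The copies at the 25S start were gathered on few 5′ ends. The end of the leading tag had 204469 copies in 334 tags, 88.1% of the group. Ends upstream of it had 24337 copies in 585 tags (10.5%, 10.4 to 10.6%), and 90.2% of these lay 5 to 8 bases before it. The end at 6 bases before had 14477 copies, 5 bases before 4900, 7 bases before 1614 and 8 bases before 962. The profile fell to 22 copies at 11 bases before and rose again to 857 at 17 bases before, the farthest end among the rRNA tags. Thus, the upstream ends of the rRNA tags formed a large cluster next to the 25S start and a smaller one 15 to 17 bases before it, of 1446 copies, with 174 copies at the 5 ends between 10 and 14 bases before. The outer limit of the smaller cluster holds for rRNA tags only, since t4657607, without an rRNA record, had 253 copies at 18 bases before. The inner limit of the large cluster holds for the table only. From 4 to 1 bases before, no tag with the group's most common letters was among the rRNA tags.

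Downstream, few copies were in the table. The end 1 base after the leading tag's start had 3276 copies in 192 tags, and the 14 ends farther inside had 28 copies in 25 tags, with at most 7 copies at 1 end.

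Some ends were represented by variant letters only. At each end from 17 to 5 bases before the start, the tag with the group's most common letters was present and led the end. At 4, 3, 2 and 1 bases before, where 371, 134, 26 and 92 copies were counted, this tag was not among the tags analysed here. The same held 1 base after, where no tag carried the leading tag's letters from its second base on. The 3 highest rRNA tags of this end each differed from the leading tag by 1 base, t4659187 with 1641 copies by T24C, t4658874 with 807 copies by C23T and t4658093 with 353 copies by G34A. Substitutions give the leading tag's base, the position from 1 at its 5′ end and the base of the other tag. Of the 14 ends farther inside, 13 likewise had no tag with the most common letters. In all, 18 of the 33 ends of the group, with 3926 copies, held variant letters only. Because the table holds part of the library, the copies at these ends are counts in the table only, and the low counts downstream are read from ends of this kind.

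**Figure D3:**
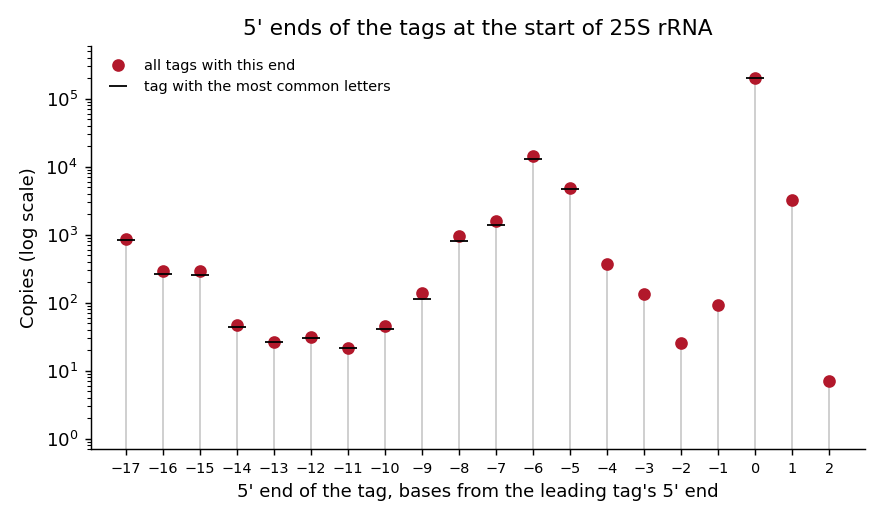
Copies (log scale) by position of the 5′ end at the 25S start, in bases from the 5′ end of the leading tag; circles give all rRNA tags with that end and black bars the tag with the most common letters, which is missing where no bar is drawn. The highest circles stand at 0 (204469 copies), 6 bases before (14477) and 5 bases before (4900).

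Around the leading tag lay a set of near copies. Of the 141 possible single substitutions to another base, 97 were found in the table, and these tags held 3519 copies, 1.75% of the leading tag's 200601. With 2 substitutions there were 190 tags and 275 copies, and with 3 there were 39 tags and 55 copies. The most copied single tags were A33G with 277 copies (0.138% of the leading tag), A33C with 252 copies and G29C with 201 copies. By position, 33 had the most substituted copies (589, 0.294%), then 24 with 289 and 35 with 253. Positions 1 to 4, 17, 22 and 44 to 47 had none. Because the table holds part of the library, these gaps and the profile by position describe the table only. By type, T>C (545 copies, 15.5%) and A>G (511 copies, 14.5%) were the most frequent.

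**Figure D4:**
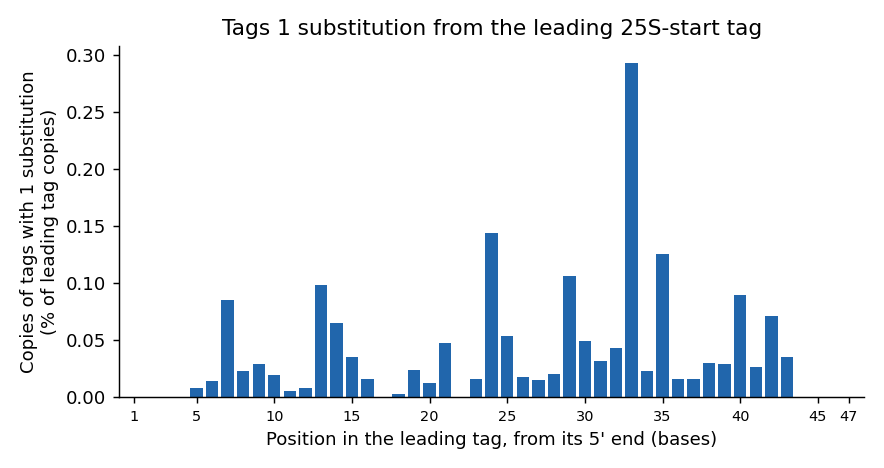
Copies of tags that differ from the leading 25S-start tag by 1 substitution, as a percentage of its 200601 copies, by position from its 5′ end (bases). Position 33 is highest at 0.294%, and the 4 positions at either end have no bar, since no such tag was in the table.

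A second version of the ITS2 end was far more frequent than these near copies. The 2 tags with most copies at 6 bases before the 25S start differed in their first base alone, which is in capitals.
t4659414: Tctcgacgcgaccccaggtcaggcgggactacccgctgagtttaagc
t4659016: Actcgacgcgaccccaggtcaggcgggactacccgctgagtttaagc
The first had 12921 copies and the second, T1A, had 1053, which was 7.54% of both (7.11 to 7.98%). The same base was followed through the ends farther upstream, whether or not a tag carried an rRNA record, with positions counted in each tag. At 7 bases before, t4659118 had 1377 copies and its T2A version 133 (8.81%, 7.48 to 10.3%). At 8 bases before, t4658878 had 810 copies and its T3A version 115 (12.4%, 10.5 to 14.7%). At 17 bases before, t4658906 had 855 copies and its T12A version 82 (8.75%, 7.11 to 10.7%). In all, the second version made up 7.24 to 12.4% at the 6 ends with at least 200 copies of both. The interval at 8 bases before lay above those at 7 and 6 bases before, and the intervals of all other pairs of these ends overlapped. At the 5 ends from 10 to 14 bases before, the second version had 1 of 165 copies (0.606%, 0.107 to 3.35%). The other 2 bases had 11 copies together at 6 bases before. The 98 tags 1 substitution from t4659414 held 1461 copies, of which T1A had 1053. Near copies of the leading tag are no like measure for a first base, since none at its positions 1 to 4 was in the table.

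In ITS1 nearly all copies began at 1 base, and there too several versions were read. Of its 6319 copies, 6204 (98.2%) began at the same base as t4659364, and the nearest ends had 42 copies 1 base before and 41 copies 1 base after. At this end t4659364 had 4534 copies, t4658834 had 750 and t4658771 had 706. The second differed from the first by the loss of 1 base, at position 32, and was otherwise equal over the shared letters. The third differed by the substitution A33T alone. The shares of the 3 were 75.7% (74.6 to 76.8%), 12.5% (11.7 to 13.4%) and 11.8% (10.99 to 12.6%). At the end 1 base before, the 3 versions had 34, 2 and 5 copies, and 1 base after they had 27, 0 and 14 copies, which is too few to rank the minor ones.

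**Figure D5:**
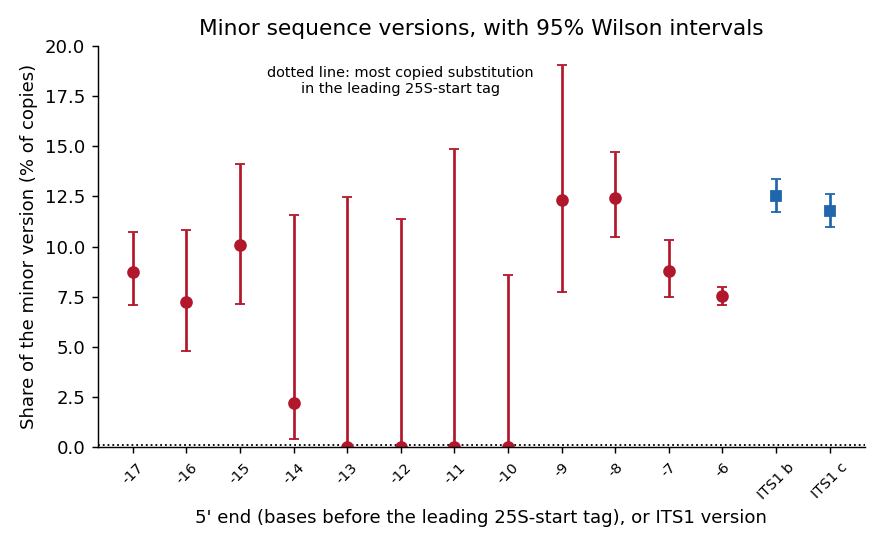
Share of the minor version in percent of the copies of the versions compared, with Wilson 95% intervals; red circles give the second version of 1 ITS2 base by 5′ end (bases before the leading 25S-start tag) and blue squares the ITS1 versions with a lost base (ITS1 b) and with A33T (ITS1 c). At 6 bases before the share is 7.54% and the ITS1 versions are at 12.5 and 11.8%, whereas the most copied substitution in the leading 25S-start tag, drawn as a dotted line, is at 0.138%. The line is from another tag, which had no substitution at its first 4 positions in the table.

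The ITS2 group had no such main end. Its leading tag t4657305 had 213 copies, and its 1900 copies were spread over 106 ends within 179 bases. The 10 ends seen from 4 bases before to 6 bases after the leading tag's start had 1127 copies (59.3%), and the next tags were t4657074 with 193 copies, 1 base before, and t4656384 with 148 copies, 3 bases after. Farther on, a single end 85 bases after had 147 copies. These values hold for rRNA tags only. Overlapping tags without an rRNA record had 957 copies in 113 tags, among them t4653787 with 87 copies at 4 bases before. The share at the leading end was 11.4%, against 98.2% for ITS1 and 97.2% for the internal 25S group. In the internal 25S group 4 of the 5 ends held variant letters only among rRNA tags, against 0 of 106 in ITS2. The 97.2% is therefore a value of the table only and is not a like measure to the 11.4%.

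In the internal 25S group 1 tag held nearly all copies. It is shown because this was the only group of over 1000 copies inside a mature rRNA.
t4659033: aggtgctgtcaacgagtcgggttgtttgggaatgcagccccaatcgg
This tag had 1088 of the 1148 copies of the group (94.8%). Its next tags, t4448896 and t3903022, had 6 and 3 copies, and the 5 ends of the group lay within 2 bases on either side of it. At the 4 other ends, with 32 copies, no tag with the group's most common letters was among the rRNA tags. Tags 1 substitution away held 28 copies, 2.57% of its own. The share was 1.75% for the leading tag of the 25S start and 3.17% for t4659365 at 5 bases before it. For the leading tag of the 5.8S start it was 4.10%, on 29 copies. It was 11.3% for t4659414 at 6 bases before the 25S start and 19.8% for the leading ITS1 tag. In each of these last 2, a single minor version held most of the substituted copies.

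Tags at the 5.8S start began in the last bases of ITS1. The tag t4658775 had 708 copies, and t4657564, 1 base before it, had 248. These 2 ends had 752 and 272 of the 1078 copies (69.8% and 25.2%). The third tag of the group, t4564929, had 11 copies. The other 9 ends, with 54 copies, had no rRNA tag with the most common letters, and the concentration on 2 ends holds for rRNA tags only. Of the overlapping tags without an rRNA record, t4654031 had 90 copies at 2 bases before. In this group 21 tags with 44 copies opened with 4 or more A (4.08%, 3.05 to 5.43%). Tags of this kind had 12 of 232110 copies at the 25S start (0.00517%), 1 of 6319 in the ITS1 group and none in ITS2, where 0 of 1900 copies allows a share of up to 0.158%. The second ITS1 group, which was small, had the highest share of the 12 largest groups when only rRNA tags were counted. It had 6 of 39 copies in 2 tags (15.4%, 7.25 to 29.7%). Overlapping tags without an rRNA record had only 8 of 634 copies of this kind in that group. The ranking therefore holds for rRNA tags only. No tag of the 12 largest groups closed with 6 or more A. The end of 5.8S was seen in another group of 17 rRNA tags and 94 copies, spread over 13 ends within 62 bases, with 21 copies at its leading end. This describes the smaller part of the copies there. Overlapping tags without an rRNA record had 1267 copies, among them t4657508 with 238 copies at 29 bases after the leading end.

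For some groups the matched regions had the order of the names given here. The regions carry no names of their own, so this is no separate check of the names. Tags of 5 groups matched 3 records with 3 rRNA regions each, which follow one another without a gap and are 217 to 224, 163, and 238 to 241 bases long. In order these regions have the place of ITS1, 5.8S and ITS2. The first region had the tags of the ITS1 group and of a second ITS1 group of 39 copies, 6358 copies in all. The second region had the 94 copies of the 5.8S end, and the third the 1919 copies of the ITS2 group and of a group of 19 copies. That group had 16 tags, and these are the same counts of tags and copies as on the opposite strand of ITS2 below. The group at the 25S start matched 1427 records, which included 105 of the 472 records of the 5.8S start and 45 of the 50 records of the 18S end. They included only 11 of the 68 records of the internal 25S group, and none of those of the ITS1, ITS2, 5.8S end and 18S start groups. Copies could not be given to single records, because most tags matched many: the table stops at 250 records for a tag, and 466 rRNA tags with 207767 copies had that number. The region with the most copies, 204 bases long, was matched by 828 tags with 228228 copies (91.0% of the rRNA copies) when each tag was counted whole. It received 2.51% when each tag was split evenly over its rRNA regions. The next 9 regions, of 79 to 150 bases, were matched by tags with 206260 to 226676 copies, which are largely the copies of the leading tag counted again.

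Orientation was taken from the tags' own letters, because the sign in a record is that of the region. No rRNA tag overlapped the opposite strand of the 25S start, where 0 of 232110 copies allows a share of up to 0.00129%, and none that of the ITS1, the internal 25S or the 5.8S start group. The ITS2 group was matched on the opposite strand by 16 tags with 19 copies (0.990%, 0.635 to 1.54% of both strands). Opposite tags were also found for 3 unnamed groups, at 7.85% (5.29 to 11.5%) for that led by t4654037, 7.92% (4.07 to 14.9%) for that led by t4628634 and 14.6% (8.74 to 23.4%) for that led by t4191082.

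By first base, C opened 84.7% of the rRNA copies, which is the first base of the leading tag. Without this tag, A opened 35.9% (18027 copies), T 30.0% (15067 copies), C 23.8% and G 10.3%. The copies with A include the 6006 of the run of 47 A, which belongs to no rRNA in particular, so A and T are not ranked here. Over different rRNA tags the shares were 32.9% for C, 31.2% for A, 18.9% for G and 17.1% for T, against 24.4 to 25.4% for each base over tags with a tRNA record. The rRNA tags here include 502 tags low in complexity and rich in A, whereas no tag with a tRNA record was low in complexity. The median GC content of the rRNA tags was 59.6%, higher than the 51.1% of tags with a tRNA record and the 46.8% of tags with neither. All tags were 47 bases long. These are descriptions of 1 library, in which tags of a group overlap and are not independent.

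Besides rRNA, all 2349 tags carried at least 1 record with no kind given, so that no tag had rRNA records only. A tRNA record was carried by 109 of them with 258 copies (0.103% of the rRNA copies), and an ncRNA record by 3 with 3 copies. A miRNA record was carried by 1 tag. All 109 tags fell on a region of 3410 bases, marked minus, of 1 record, which was matched by 127 rRNA tags with 397 copies. They included 56 of the 72 tags of the group led by t4654037 (270 copies) and all 26 tags of that led by t4628634 (93 copies). In the comparisons between classes they were counted with the rRNA tags only.

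The rule left out tags that lay over its own members. Among the 3010 tags without an rRNA record, 993 tags with 5698 copies overlapped an rRNA tag by the same rule, 33.0% of those tags and 45.3% of their 12582 copies. At the 25S start there were 248 with 1340 copies, among them t4658571 with 549 copies at 1 base after and t4657607 with 253 copies at 18 bases before. At the end of 5.8S they outnumbered the rRNA tags, with 1267 copies against 94, and likewise in the second ITS1 group with 634 against 39 and at the 18S start with 291 against 62. Of the 291 copies at the 18S start without an rRNA record, 142 opened with 4 or more A, 135 of them in t4656070. The first rank of the second ITS1 group by such copies therefore holds for rRNA tags only. With these tags counted too, rRNA would be 97.4% of the copies in the table. That share still includes the 7413 copies of rRNA tags low in complexity. The rRNA tags without them had 243402 of the 263397 copies.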

How the data were processed

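Total RNA from shoot apices of the 4 treatments was mixed. The paper describes treatment with an mRNA kit (Oligotex) both before and after a 5′ RNA adapter was ligated to fragments with a 5′-monophosphate. An oligo dT primer was then used for reverse transcription. Before deposit, the authors trimmed and quality-filtered the reads, collapsed them into tags and mapped these with SOAP to the genome of cucumber. The deposited table gives the count of copies of each tag, with no normalization, and the RNA records it matched; the tool and database behind these records are not given in the sources used here. All its tags have the same empty gene entry, so the table is a part of the library. The miRNA and FPKM tables were not used here.

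Tags were read from the table in Python 3 and joined where they overlapped by at least 25 bases with at most 2 mismatches, after an exact match of 10 bases; tags with 36 or more of 1 base were kept out. Records give no position of the tag, so 5′ ends were placed by these overlaps. Ends, versions and orientation follow from the letters of the tags. The grouping was tested on simulated data. Wilson 95% intervals were computed with SciPy, and where 0 copies were seen the limit is 3 copies of the total. No test was run, because 1 library has no replicate. Tags named are the 15 with the most copies and the 3 highest of the largest groups, to which others were added after their values were seen. Sequences are printed only from groups in which a tag matched an rRNA record with a plant species code. The members and lists were chosen with earlier results of these data known.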

Additional observations from a re-analysis of the deposited data

How the results depend on the processing

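The share of the table's copies in rRNA tags, 95.2%, moved with every choice tried here by more than its counting interval. It was 43.8% over different tags, 0 where all records had to be rRNA, since each tag also had a record of no kind, and 87.1% where the first record decided. It was 95.9% over tags of at least 2 copies, 97.0% over tags of at least 10 copies, 80.0% without the leading tag and 56.0% without the 10 highest rRNA tags. After the data were seen, 2 more choices were added. The share was 95.4% when tags low in complexity were left out of both the rRNA copies and the total. It was 97.4% with tags that overlap an rRNA tag, where the tags low in complexity were kept. The record region with the most copies had 2.51% of the rRNA copies with tags split evenly, 9.54% with each tag on its first record, 36.3% over the 792 tags with 1 rRNA region and 6.04% over different tags. No rRNA tag had a single record of any kind, so a planned choice over such tags gave no value, and that over 1 rRNA region was added. First base C had 84.7% of copies, 32.9% of different tags, 23.8% of copies without the leading tag, 85.6% over tags of at least 10 copies and, as an added choice, 87.3% without tags low in complexity. The leading tag had 80.0% of the rRNA copies and 80.4% over tags of at least 2 copies; the end with its 2 neighbours had 82.9%, and the tag had 82.4% without tags low in complexity, an added choice. Tags that also had a tRNA record were 0.103% of copies, and in added choices 4.64% of different tags and 0.514% of copies without the leading tag. The share of the 25S-start group, 92.5%, moved by less than its counting interval in 4 added choices of overlap (20 or 30 bases) and mismatches (1 or 3). No paired analysis was possible because the degradome is 1 library and no test was run.

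Counts limit what can be read at single ends. Most tags were read once, and the table holds a part of the library, so an absent tag or a share of 0 says nothing of the whole library. The part that PCR and the choice of tags for the table have in these values was not tested.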
